A study of Mus musculus with 39 samples.

Results

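The genes described here make or use nitric oxide and tryptophan: the inducible nitric oxide synthase Nos2 with its suppliers Gch1 and Ass1, and the tryptophan-catabolizing enzymes Ido1, Ido2, Kynu and Kmo with the tryptophanyl-tRNA synthetase Wars. They were taken from the gene count table by symbol, whatever their level, and 7 of the 8 were analysed, out of 39676 genes in the table. Gch1, which encodes the first enzyme of tetrahydrobiopterin synthesis, was not analysed here.

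Nos2 oxidizes arginine to nitric oxide and citrulline with tetrahydrobiopterin as cofactor, and Ass1 with Asl returns citrulline to arginine. Ido1 and Ido2 open the indole ring of tryptophan, after which Kmo hydroxylates kynurenine and Kynu cleaves the products. Interferon-γ induces several of these genes in macrophages and dendritic cells, Wars among them, and in tumours the loss of arginine and tryptophan is known for its effects on T cells.

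The tumours were AB1-HA, a mouse mesothelioma line carrying the influenza haemagglutinin gene, grown under the skin of female and male BALB/c mice aged 8 to 10 weeks. Of 39 whole tumours, 10 were from PBS mice, 9 from mice treated with tretinoin (all-trans retinoic acid, 5 daily doses of 5 mg/kg from day 4 per the labels, the study's text describing the dosing differently), 10 from mice treated with immune checkpoint therapy (ICT, 100 µg each of antibodies to CTLA-4 and PD-L1, starting on day 7) and 10 from mice given both. PBS containing DMSO was the control for tretinoin in the study, and the labels of the control tumours name PBS alone. Mice bore a tumour on either flank, 1 of which was removed on day 9 for sequencing. In the tretinoin+ICT group the remaining tumour later divided the mice into 6 responders, with cure, and 4 non-responders, with outgrowth. The AB1-HA line is the single tumour model used here, and a bulk library cannot tell fewer cells of a type from less RNA per cell.

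Total counts were 14033046 to 37951183 per tumour. The first digit of the tumour names forms 2 series within each treatment, and no series holds 2 treatments, so series and treatment cannot be told apart. In earlier results of these data 4 tumours had stood apart: PBS replicate 4, tretinoin replicate 3 and ICT replicates 3 and 7. PBS replicate 4 and ICT replicate 3 each had the highest level of their group for 6 of the 7 genes, and tretinoin replicate 3 for 4. ICT replicate 7 was highest for 0 and highest or second for 6. Of the mesothelial markers listed for the tumour line, 7 of 8 were found, with a summed level of 2817 to 4745 CPM (counts per 1000000 counts of the library, after normalization) over all groups. Most of this sum was Vim, at 2682 to 4570 CPM, which many other cells express too. Pdpn and Cdh2 held 50.6 to 121 CPM, whereas the lineage markers Wt1, Krt19, Lrrn4 and Upk3b were low or nearly absent, with highest levels of 5.46, 0.968, 0.224 and 0.0617 CPM, and Upk3b was at 0 in every tretinoin and tretinoin+ICT tumour. Of the macrophage markers 8 of 9 were found, with a summed level of 2106 to 4876 CPM.

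All 7 genes are protein coding, and their identifiers match GENCODE M21 on GRCm38. Ido1 (ENSMUSG00000031551.12, chromosome 8, 24584136 to 24597009) and Ido2 (ENSMUSG00000031549.16, chromosome 8, 24531892 to 24576333) are neighbours on the minus strand, 7802 bases apart. Their transcripts share 0 stretches of 31 bases, and the reads were 100 bases long. Nos2 (ENSMUSG00000020826.8) lies on chromosome 11 at 78920787 to 78960254, and Ass1 (ENSMUSG00000076441.9) on chromosome 2 at 31470207 to 31520672. Kynu (ENSMUSG00000026866.16) spans 43555329 to 43682715 of chromosome 2. No other gene of the annotation overlaps these 5. Kmo (ENSMUSG00000039783.15, chromosome 1, 175620381 to 175662116) overlaps Fh1 on the opposite strand, and Wars (ENSMUSG00000021266.16, chromosome 12, 108860030 to 108894174) overlaps Wdr25 and 2 non-coding genes. The use of strand in counting is not given in the sources used here, so reads from these overlaps cannot be assigned with certainty.

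The RefSeq promoter table held Ass1 and Kmo among the 7 genes. They are shown because that table held no promoter for the others of the 7. The stretches lie before the start that RefSeq gives and outside any annotated exon, at chr2:31470020-31470206 and chr1:175631943-175631995 of GRCm38.p6, both on the plus strand. The Ass1 stretch is upstream of the GENCODE gene, but that of Kmo begins 11562 bases inside it, in an intron, and is not the sequence before the first GENCODE exon.
Ass1: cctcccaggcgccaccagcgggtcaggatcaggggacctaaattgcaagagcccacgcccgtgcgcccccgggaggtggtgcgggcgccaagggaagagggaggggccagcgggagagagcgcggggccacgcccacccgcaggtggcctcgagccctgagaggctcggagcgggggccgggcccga
Kmo: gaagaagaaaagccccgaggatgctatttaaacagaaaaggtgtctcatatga
The search covered 300 bases around each start on both strands. Neither window held the paired IRF core GAAANNGAAA, the ATF4 site TGATGNAA or a retinoic acid response element of type DR5 or DR2. Over all 32851 promoters of that length, 3.44% held the paired IRF core, 3.97% the ATF4 site, 0.0974% a DR5 and 0.268% a DR2. Nos2, Ido1, Ido2, Kynu and Wars were not searched.

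Per length of exon, the genes differed widely in PBS tumours. The median RPKM (CPM divided by exon length in kilobases) was 23.9 for Wars, 8.88 for Ass1, 1.94 for Kmo, 1.21 for Nos2, 0.408 for Kynu, 0.357 for Ido1 and 0.191 for Ido2. On this scale the lowest Wars value (22.4) lay above every Ass1 value, and the lowest Ass1 value (6.68) above every value of the other 5 genes. Kmo and Nos2 overlapped, as did Kynu, Ido1 and Ido2. Ido1 and Ido2 rested on few reads there, with 4 to 70 and 1 to 44 counts per tumour. In tretinoin+ICT tumours the median RPKM was 64.4 for Wars, 23.0 for Ass1, 9.28 for Nos2, 5.36 for Ido1, 2.91 for Kmo, 2.29 for Ido2 and 1.23 for Kynu. There each gene overlapped in range with its neighbour in that order.

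**Figure D1:**
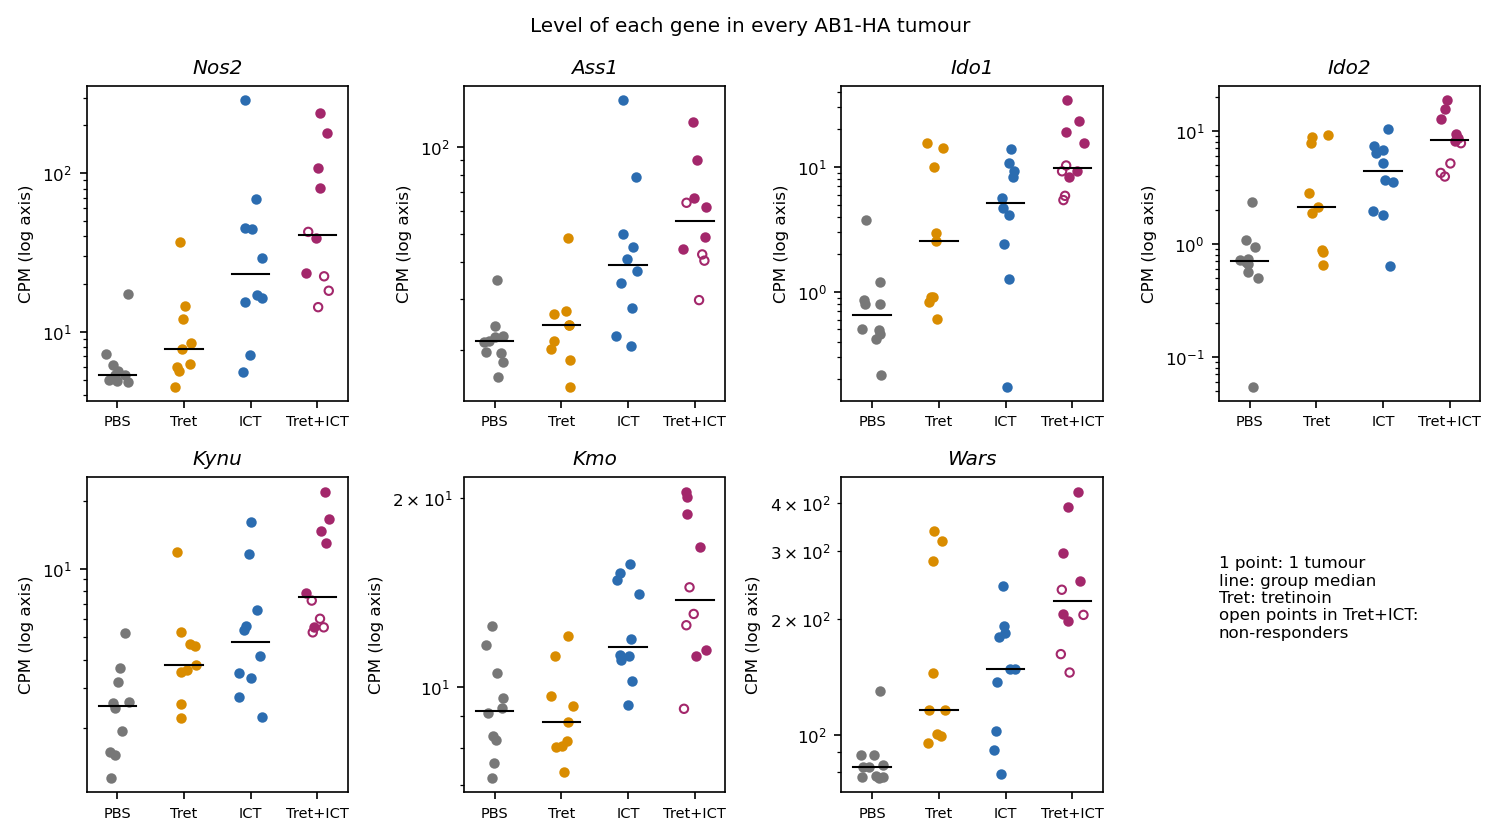
Level of each gene in CPM (log axis) in every tumour of the 4 treatment groups, 1 point per tumour with the group median as a line and non-responders as open points. Ido1, Ido2, Kynu and Wars in tretinoin+ICT tumours lie above every PBS tumour, and single tumours stand high in PBS and ICT.

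Nos2 was low without ICT and spread widely with it. Its level in PBS tumours ran from 4.83 to 17.4 CPM with a median of 5.33. Tretinoin tumours held 4.51 to 36.6 CPM with a median of 7.83. In ICT tumours the range was 5.58 to 288 CPM around a median of 23.2, and in tretinoin+ICT tumours 14.3 to 239 CPM around 40.9. Tretinoin and PBS tumours overlapped almost throughout, whereas 9 of 10 tretinoin+ICT tumours exceeded the highest PBS tumour. Nos2 rose with ICT by 3.01 on the log2 scale (SE 0.64, adjusted p = 0.00456) and with tretinoin+ICT by 3.53 (SE 0.54, adjusted p = 3.75e-05). Without ICT replicate 3, the tumour with 288 CPM, the rise with ICT was 2.05 (adjusted p = 0.00511). With tretinoin alone the log2 fold change was 0.77 (SE 0.38, adjusted p = 0.153). That value passed without PBS replicate 4, at 1.04 and adjusted p = 0.035, and without both PBS replicate 4 and tretinoin replicate 3, at 0.57 and adjusted p = 0.0414. It was 0.28 with adjusted p = 0.506 without tretinoin replicate 3 alone, and ran from -0.01 to 1.32 between single series of tumour names, none of the 4 pairs passing. PBS replicate 4 and tretinoin replicate 3 held the most Nos2 of their groups. Leaving either out moves the value by construction, so a pass without PBS replicate 4 is no separate support for a rise.

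Ass1, the synthetase that rebuilds arginine from citrulline, showed the same order at a higher level. PBS tumours held 16.1 to 34.9 CPM (median 21.4) and tretinoin tumours 15.0 to 48.7 CPM (median 24.4). ICT tumours held 20.6 to 144 CPM (median 39.2) and tretinoin+ICT tumours 29.7 to 121 CPM (median 55.6). PBS and tretinoin tumours overlapped, and 9 of 10 tretinoin+ICT tumours were above every PBS tumour. Ass1 rose by 1.18 with ICT (SE 0.30, adjusted p = 0.0103) and by 1.47 with tretinoin+ICT (SE 0.21, adjusted p = 1.8e-05). With tretinoin its log2 fold change was 0.19 (95% confidence interval -0.17 to 0.56, adjusted p = 0.46).

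Ido1 had the largest log2 fold change of the 7 genes with tretinoin and with tretinoin+ICT, and Ido2 came next to it with tretinoin. Ido1 had 0.217 to 3.74 CPM in PBS tumours (median 0.652), 0.607 to 15.7 in tretinoin tumours (median 2.55), 0.174 to 13.9 in ICT tumours (median 5.14) and 5.43 to 34.2 in tretinoin+ICT tumours (median 9.78). The tretinoin tumours were uneven, with 3 at or above 9.97 CPM and the other 6 at or below 2.95 CPM. ICT replicate 10 had the lowest level of all, 0.174 CPM from 3 counts, which cannot be told from the lowest PBS tumour with 4 counts. Ido1 rose by 2.51 with tretinoin (SE 0.69, adjusted p = 0.0165), by 2.67 with ICT (SE 0.56, adjusted p = 0.00429) and by 3.89 with tretinoin+ICT (SE 0.46, adjusted p = 2.82e-06).

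Ido2, the paralogue with lower catalytic activity, had 0.0543 to 2.35 CPM in PBS tumours (median 0.696) and 0.652 to 9.22 in tretinoin tumours (median 2.12). ICT tumours had 0.64 to 10.3 CPM (median 4.42) and tretinoin+ICT tumours 3.92 to 18.5 CPM (median 8.32). The 3 tretinoin tumours with high Ido1 were also the 3 with the most Ido2, at 7.74 to 9.22 CPM. Ido2 rose by 2.23 with tretinoin (SE 0.55, adjusted p = 0.00853), by 2.51 with ICT (SE 0.44, adjusted p = 0.0014) and by 3.50 with tretinoin+ICT (SE 0.38, adjusted p = 9.17e-07).

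Kynu, the kynureninase, had 1.2 to 5.23 CPM in PBS tumours (median 2.51), 2.21 to 11.9 in tretinoin tumours (median 3.77), 2.24 to 16.1 in ICT tumours (median 4.77) and 5.27 to 21.9 in tretinoin+ICT tumours (median 7.56). The tretinoin and ICT ranges both began inside the PBS range. Kynu rose by 0.86 with tretinoin (SE 0.30, adjusted p = 0.0479), by 1.23 with ICT (SE 0.35, adjusted p = 0.0174) and by 2.0 with tretinoin+ICT (SE 0.31, adjusted p = 3.45e-05). The first of these calls was lost without tretinoin replicate 3, at 0.54 and adjusted p = 0.122.

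Kmo, the monooxygenase of the kynurenine branch, moved least. PBS tumours held 7.17 to 12.5 CPM (median 9.18), tretinoin tumours 7.32 to 12.1 CPM (median 8.79), ICT tumours 9.36 to 15.7 CPM (median 11.6) and tretinoin+ICT tumours 9.24 to 20.5 CPM (median 13.7). All 10 ICT tumours were above the PBS median, and 4 of them above every PBS tumour. Kmo rose by 0.40 with ICT (SE 0.11, adjusted p = 0.0162) and by 0.66 with tretinoin+ICT (SE 0.14, adjusted p = 0.000659), and its log2 fold change with tretinoin was -0.03 (95% confidence interval -0.26 to 0.19, adjusted p = 0.858).

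Wars, which charges tRNA with tryptophan, was the most abundant of the 7. PBS tumours held 77.1 to 130 CPM (median 82.4), tretinoin tumours 95.1 to 338 CPM (median 116), ICT tumours 79.2 to 244 CPM (median 148) and tretinoin+ICT tumours 145 to 428 CPM (median 222). Apart from PBS replicate 4, at 129.7 CPM, every PBS tumour lay below every tretinoin tumour. The tretinoin tumours were uneven, as for Ido1 and Ido2. Replicates 2, 3 and 6, the highest for those genes too, held 283, 338 and 319 CPM of Wars, and the others at most 144.7 CPM. Wars rose by 1.05 with tretinoin (SE 0.26, adjusted p = 0.00872), by 0.79 with ICT (SE 0.17, adjusted p = 0.00456) and by 1.55 with tretinoin+ICT (SE 0.18, adjusted p = 1.81e-06).

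Counted together, 4 of 7 genes rose with tretinoin, against 11.5% of all genes tested. With ICT 7 of 7 rose, against 14.1%, and with tretinoin+ICT 7 of 7, against 25.7%. The 3 comparisons share the PBS tumours. In tretinoin+ICT tumours 4 of the 7 genes (Ido1, Ido2, Kynu and Wars) were above the highest PBS tumour in every tumour, which held for 3.69% of all genes. The median log2 fold change of the 7 genes was 0.86 with tretinoin, 1.23 with ICT and 2.0 with tretinoin+ICT, and that of all genes tested lay between -0.02 and 0.01. Between single series of 4 or 5 tumours, the tretinoin count was 3 in series 3 against 5, where 7.94% of all genes rose, and 0 in the other 3 pairs, where 1.44%, 2.77% and 5.3% did. The ICT count was 6 in series 8 against 5, where 10.9% of all genes rose, and 0 in the other 3 pairs, where 0.0351%, 0.0845% and 2.0% did. The tretinoin+ICT count was 7 in all 4 pairs, with 14.9%, 16.5%, 18.5% and 18.6% of all genes. With the study's further minimum of 1 on the log2 scale the counts were 3 with tretinoin (Kynu lost, 1.49% of all genes), 5 with ICT (Kmo and Wars lost, 2.28%) and 6 with tretinoin+ICT (Kmo lost, 5.45%). The median Ido1 level in tretinoin tumours was 2.95 CPM in series 3 and 0.863 CPM in series 7.

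**Figure D2:**
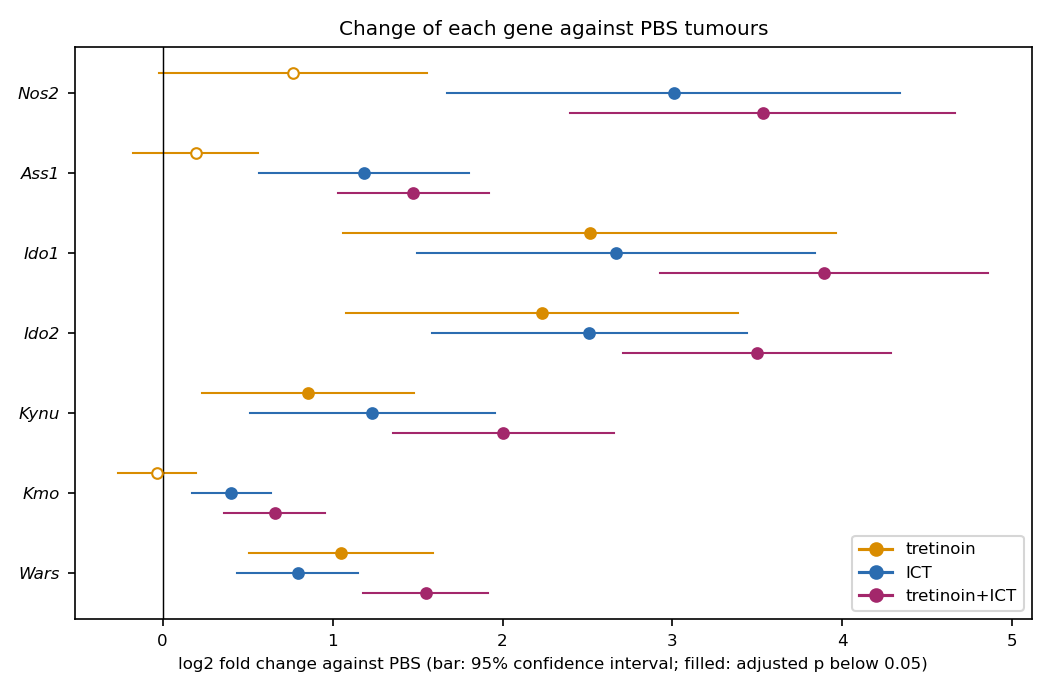
Log2 fold change against PBS tumours (horizontal axis) of the 7 genes for tretinoin, ICT and tretinoin+ICT, with 95% confidence intervals as bars and filled points where the adjusted p was below 0.05. Nos2, Ass1 and Kmo are open for tretinoin at 0.77, 0.19 and -0.03, and every ICT and tretinoin+ICT point is filled.

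ICT tumours were also set directly against tretinoin tumours, a comparison added after the values were seen. It compares single genes and does not test the 2 pathways as wholes. Nos2 was higher with ICT by 2.24 (SE 0.68, adjusted p = 0.0459) and Kmo by 0.43 (SE 0.11, adjusted p = 0.018), which made 2 of 7 genes against 4.13% of all genes tested. Ass1 had a log2 fold change of 0.98 (SE 0.32, adjusted p = 0.0633) and passed by DESeq2, at adjusted p = 0.015. The Nos2 call was lost without ICT replicate 3, at 1.29 and adjusted p = 0.127, and without ICT replicate 7, at adjusted p = 0.0681. The Kmo call was lost without all 3 of these groups' tumours that stood apart, at 0.33 and adjusted p = 0.0709, where Nos2 passed at 1.45 and adjusted p = 0.036. Of the tryptophan enzymes, Kmo had a narrow 95% confidence interval of 0.20 to 0.67. The intervals were wide for Ido1 (-1.25 to 1.57 around 0.16), Ido2 (-0.83 to 1.39 around 0.28) and Kynu (-0.39 to 1.14 around 0.38). Wars had -0.26 (95% confidence interval -0.85 to 0.34).

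The log2 ratio of Nos2 to Ido1 within a tumour is given as a description, without a test. It was 2.06 to 3.93 in PBS tumours with a median of 2.99, and -0.38 to 3.48 in tretinoin tumours with a median of 1.37. In ICT tumours it was 1.63 to 4.36 with a median of 2.54, and in tretinoin+ICT tumours 1.27 to 2.93 with a median of 2.06. The groups overlapped. Tretinoin replicate 6 was the one tumour with more Ido1 than Nos2 counts, at 15.7 CPM of Ido1 and 12.0 CPM of Nos2.

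**Figure D3:**
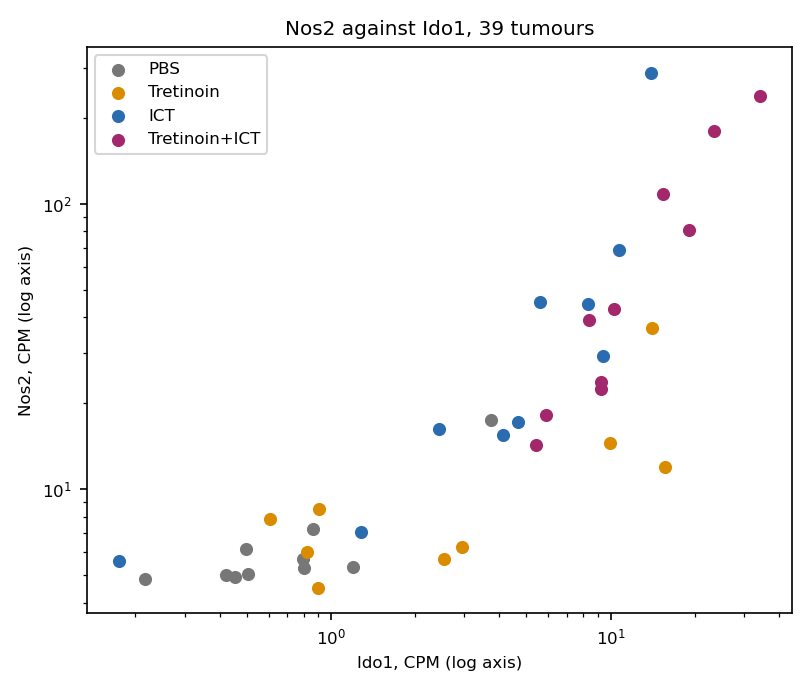
Nos2 level (vertical, CPM, log axis) against Ido1 level (horizontal, CPM, log axis) in the 39 tumours, coloured by treatment. After subtracting treatment means r was 0.773, and 3 tretinoin tumours with 9.97 to 15.7 CPM of Ido1 lie to the right of the others of their group with 12.0 to 36.6 CPM of Nos2.

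Adding tretinoin to ICT, 0 of 7 genes passed, against 1.57% of all genes tested by edgeR. All 7 log2 fold changes were above 0, the median being 0.74. Wars was nearest to the threshold at 0.74 (SE 0.22, adjusted p = 0.0844), and it passed by DESeq2 at adjusted p = 0.0209. At an unadjusted p below 0.05 the tretinoin+ICT level was higher for 4 of the 7, namely Wars, Ido2 (p = 0.0177), Ido1 (p = 0.0183) and Kynu (p = 0.0475), against 18.1% of all genes in either direction. Without ICT replicates 3 and 7, which held 288 and 69.1 CPM of Nos2, 5 of 7 genes passed (Kynu 1.3, Wars 0.91, Ido1 1.63, Ido2 1.28 and Ass1 0.80) against 9.58% of all genes. These 2 tumours were each highest or second of the ICT group for 6 of the 7 genes. Leaving them out lowers the ICT levels by construction, so this count is no separate support for a rise. Without ICT replicate 3 alone the one gene that passed was Wars, at 0.85 and adjusted p = 0.0286. Nos2 had 0.52 (adjusted p = 0.693) with all tumours, 1.47 (adjusted p = 0.117) without ICT replicate 3 and 1.76 (adjusted p = 0.0577) without both.

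Adding ICT to tretinoin, 4 of 7 genes rose, against 12.3% of all genes tested. They were Nos2 by 2.76 (SE 0.60, adjusted p = 0.00605), Ass1 by 1.28 (SE 0.25, adjusted p = 0.00274), Kynu by 1.15 (SE 0.34, adjusted p = 0.0228) and Kmo by 0.69 (SE 0.14, adjusted p = 0.00384). Of all 7 genes, the 3 that did not pass included, each of the 10 tretinoin+ICT tumours held more than the median tretinoin tumour. The share of all genes for which this held was not computed, so it is a description and not a test. Ido2 had 1.27 (adjusted p = 0.0677), Ido1 1.38 (adjusted p = 0.103) and Wars 0.50 (adjusted p = 0.22). Without tretinoin replicate 3, Ido2 at 1.52 (adjusted p = 0.0293) and Ido1 at 1.71 (adjusted p = 0.0459) passed as well. That tumour was highest or second of its group for 6 of the 7 genes, Ido1 and Ido2 among them. Leaving it out lowers the tretinoin levels by construction, so these calls are no separate support for a rise.

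The interaction of tretinoin and ICT asks whether the change with both differs from the sum of the single changes. None of the 7 genes passed, 0 of 7 against 0.307% of all genes tested in either direction. At an unadjusted p below 0.05 the count was also 0, and by DESeq2 it was 0. The interaction was -1.29 for Ido1 (95% confidence interval -2.98 to 0.40), -1.25 for Ido2 (-2.61 to 0.11) and -0.24 for Nos2 (-1.95 to 1.46). All 3 intervals include 0. Without the 4 tumours that stood apart the value of Nos2 was 1.20 (adjusted p = 0.436).

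Responders and non-responders of the tretinoin+ICT group were compared before the outcome of the mice was reached. Nos2 was 14.3, 18.2, 22.4 and 42.6 CPM in the 4 non-responders and 23.6 to 239 CPM in the 6 responders, with a median of 94.4. Of the responders, 4 exceeded every non-responder, and the lowest responder, replicate 8, lay among the non-responders. The log2 fold change was 2.21 (SE 0.69) with adjusted p = 0.115 by edgeR and 0.0129 by DESeq2.

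Ido1 was 5.43, 5.88, 9.24 and 10.3 CPM in non-responders and 8.37 to 34.2 CPM in responders (median 17.3). Ido2 was 3.92, 4.22, 5.12 and 7.73 CPM in non-responders and 8.07 to 18.5 CPM in responders (median 10.9). Ido2 was thus higher in every responder than in any non-responder, which held for 1 of the 7 genes and 1.98% of all genes. Its log2 fold change was 1.22 (SE 0.28, adjusted p = 0.0841), and that of Ido1 was 1.26 (SE 0.40, adjusted p = 0.112). Kynu was 5.27, 5.54, 6.04 and 7.26 CPM in non-responders against 5.54 to 21.9 CPM in responders (median 13.8), and Wars 145, 162, 205 and 238 CPM against 198 to 428 CPM (median 274). Ass1 was 29.7, 40.6, 42.6 and 64.1 CPM against 44.3 to 121 CPM (median 64.3), and Kmo 9.24, 12.5, 13.1 and 14.4 CPM against 11.2 to 20.5 CPM (median 17.8). For these 4 genes the labels overlapped.

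By edgeR 0 of 7 genes and 0.0% of 14604 genes tested passed between responders and non-responders. At an unadjusted p below 0.05 it was 6 of the 7, all higher in responders, against 22.6% of all genes in either direction. By DESeq2 5 of 7 passed (Nos2, Wars, Kynu, Ido2 and Ido1), against 6.11% of its genes. Without responder replicate 8, edgeR passed 4 of 7 (Nos2, Ido1, Ido2 and Kynu), against 6.68%. That tumour was the lowest or second lowest responder for each of these 4 genes. Leaving it out raises the responder levels by construction, so this count is no separate support for a difference. The exact two-sided permutation test over the 210 divisions of the 10 tumours, without adjustment, gave p = 0.00476 for Ido2, 0.0381 for Nos2 and for Kynu, 0.0429 for Ido1, 0.0524 for Wars, 0.0762 for Ass1 and 0.124 for Kmo. With series as a covariate the log2 fold changes were 2.25 for Nos2 and 1.21 for Ido2, and no gene of the 7 passed. Series 2 held 2 responders, with 81.0 and 107.8 CPM of Nos2, and 3 non-responders, with 18.2 to 42.6 CPM, and series 4 held 4 responders and a single non-responder. Summed macrophage markers were 3813 to 4538 CPM in responders and 3090 to 3622 CPM in non-responders, without overlap. Summed dendritic cell markers were 153 to 331 and 122 to 170 CPM, monocyte markers 788 to 1774 and 770 to 1220 CPM, neutrophil markers 131 to 262 and 101 to 161 CPM, and T and NK cell markers 57.6 to 109 and 48.5 to 69.7 CPM. By edgeR none of these markers passed, and by DESeq2 3 of 8 macrophage, 4 of 8 dendritic cell, 0 of 4 monocyte, 2 of 4 neutrophil and 3 of 6 T and NK cell markers were higher in responders. The part of these cells in the differences was not tested.

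Within treatments, tumours with more of one gene had more of the others. After subtracting the treatment means of log2 CPM, all 21 pairs of genes were positively correlated over the 39 tumours, with Pearson r from 0.397 to 0.944 and adjusted permutation p of r at or below 0.0135. The tightest pair was Ido1 with Ido2 (Pearson r = 0.944, Spearman rho = 0.951), followed by Ido1 with Wars (0.923 and 0.938) and Nos2 with Ass1 (0.915 and 0.824). In each of these 3 pairs the unadjusted permutation p was 1e-05, the smallest that the permutations could give. Without the 2 tumours farthest from the median of the first gene, r was 0.935, 0.931 and 0.87, and without the 4 tumours that stood apart 0.928, 0.904 and 0.846. Nos2 with Ido1, across the 2 pathways, had r = 0.773 and rho = 0.785 (adjusted p = 1.4e-05 for both), and r = 0.776 without the 2 farthest tumours. Kmo was the loosest, with r from 0.397 with Wars to 0.651 with Kynu. Within tretinoin tumours alone its r with the other 6 genes lay between -0.379 and -0.0740, against 0.748 to 0.887 within ICT tumours, given here as a description of 9 and 10 tumours. Tumours of one treatment also differ together in leukocyte content, library and depth, which these correlations share.

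**Figure D4:**
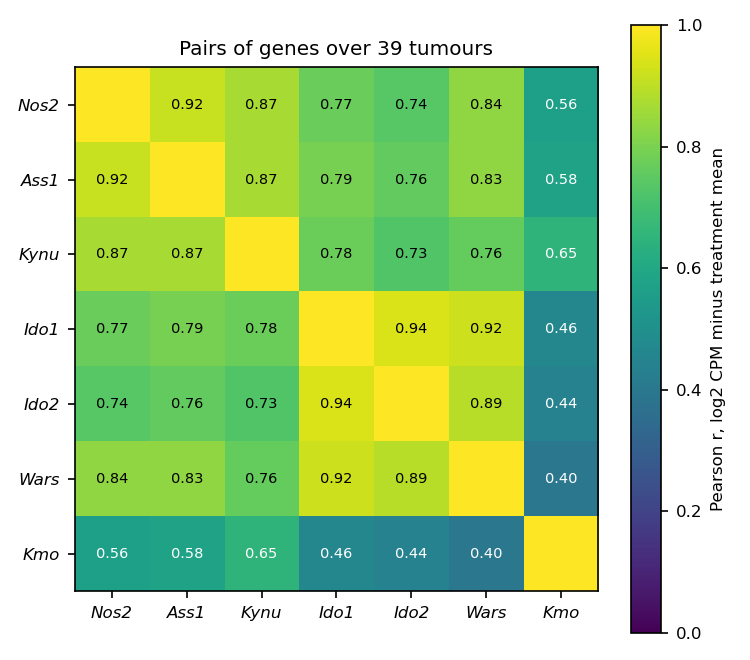
Pearson r of log2 CPM after subtracting treatment means, for the 21 pairs of genes over 39 tumours. Ido1, Ido2 and Wars have values of 0.89 to 0.94 with each other and Nos2 with Ass1 has 0.92, and the row of Kmo holds the lowest (0.40 to 0.65).

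Among 12117 other genes with a mean log2 CPM of at least 1, those most like Ido1 over the 39 tumours were the guanylate-binding proteins Gbp6 (r = 0.979), Gbp2b (r = 0.979) and Gbp5 (r = 0.978). Gbp5 (r = 0.941), Gbp2b (r = 0.940) and Apol6 (r = 0.939) led for Ido2. Nos2 was most like Tnfaip2 (r = 0.971), the leukocyte integrin chain Itgb2 (r = 0.965) and Plekho2 (r = 0.955). For Ass1 the leading genes were Tnfaip2 (r = 0.963), the phagosomal metal transporter Slc11a1 (r = 0.952) and Slco3a1 (r = 0.949). Wars was most like Samhd1 (r = 0.962) and the complement genes C1s2 and C1ra (r = 0.961 and 0.960), Kynu like Sema4a (r = 0.950), Plbd1 (r = 0.945) and Serpinb9 (r = 0.945), and Kmo like Cyp7b1 (r = 0.787), Fam65b (r = 0.785) and Cytip (r = 0.776).

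Of 16 other genes of arginine and nitric oxide metabolism, 15 were found and 13 tested. With tretinoin 2 rose (Slc7a3 by 0.47 and Ddah2 by 0.24) and 0 fell, against 11.5% of all genes higher and 8.95% lower. With ICT 4 rose and 0 fell, against 14.1% higher and 7.15% lower. With tretinoin+ICT 4 rose and 2 fell, against 25.7% higher and 24.5% lower. The largest was Slc7a2, the cationic amino acid transporter that brings arginine into activated macrophages. Its level was 5.81 to 27.8 CPM in PBS tumours, 8.61 to 145 in tretinoin tumours, 18.1 to 281 in ICT tumours and 31.03 to 219 in tretinoin+ICT tumours, so the last group lay above every PBS tumour. It rose by 2.43 with ICT (SE 0.46, adjusted p = 0.00254) and by 3.04 with tretinoin+ICT (SE 0.41, adjusted p = 1e-05), and had 1.32 with tretinoin (SE 0.50, adjusted p = 0.0704).

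Arg2, the mitochondrial arginase that competes with Nos2 for arginine, rose by 1.39 with ICT (adjusted p = 0.0082) and by 1.48 with tretinoin+ICT (adjusted p = 9.2e-05). Ddah1, which breaks down an inhibitor of nitric oxide synthases, rose by 0.23 and 0.34, and Nostrin by 0.37 and 0.53. Slc7a1, the transporter of most other cells, fell by 0.17 with tretinoin+ICT. The neuronal synthase Nos1 and the endothelial synthase Nos3 did not pass against PBS, with log2 fold changes of -0.69 and -0.25 for ICT, and both were lower in ICT than in tretinoin tumours (-0.90 and -0.52), among 4 of the 13 that were lower there against 5.41% of all genes. Endothelial markers were higher in tretinoin tumours, with a summed level of 242 to 346 CPM against 212 to 251 CPM in ICT tumours, and their part in the Nos3 difference was not tested.

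Of the 7 tetrahydrobiopterin genes other than Gch1, 5 were tested. Over all genes, 11.5%, 14.1% and 25.7% rose with tretinoin, ICT and tretinoin+ICT, and 8.95%, 7.15% and 24.5% fell. Pts, the second enzyme of the synthesis, rose by 0.26 with tretinoin, 0.28 with ICT and 0.29 with tretinoin+ICT. Gchfr, the feedback regulator of Gch1, fell by 0.44 with ICT and by 0.66 with tretinoin+ICT, and Qdpr, which recycles the cofactor, fell by 0.17 with tretinoin and by 0.16 with tretinoin+ICT.

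Few other enzymes of tryptophan and kynurenine passed. Of 13 other enzymes of tryptophan and kynurenine, 8 were tested. None rose with tretinoin or ICT, against 11.5% and 14.1% of all genes. With tretinoin+ICT the one that rose, against 25.7% of all genes, was Kyat3, a kynurenine aminotransferase, by 0.93 (SE 0.19, adjusted p = 0.00035). Ddc fell by 0.86 with tretinoin+ICT and Tph1, a tryptophan hydroxylase, by 0.37 with tretinoin, where 24.5% and 8.95% of all genes fell. Tdo2, the hepatic dioxygenase that catalyses the same step as Ido1, stayed between 0.837 and 2.93 CPM in all tumours and its log2 fold changes against PBS were 0.24, -0.01 and 0.18 with tretinoin, ICT and tretinoin+ICT. For tryptophan transport and the aryl hydrocarbon receptor, which binds kynurenine, 6 of 9 genes were tested. With tretinoin 3 rose and 1 fell, with ICT 3 rose and 0 fell, and with tretinoin+ICT 4 rose and 1 fell. Over all genes 11.5%, 14.1% and 25.7% rose, and 8.95%, 7.15% and 24.5% fell. Ahr rose by 0.44 with tretinoin (adjusted p = 0.0014), and its repressor Ahrr rose by 0.69 with tretinoin, 1.01 with ICT and 0.80 with tretinoin+ICT. Tiparp, a target of the receptor, fell by 0.28 with tretinoin and rose by 0.16 with ICT, and was higher in ICT than in tretinoin tumours by 0.44 (adjusted p = 1.3e-05).

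Wars is 1 of the cytoplasmic aminoacyl-tRNA synthetases, of which 19 others were listed and 15 tested. Of the 15, 0 rose with tretinoin, 0 with ICT and 1 with tretinoin+ICT (Kars, by 0.10), against 11.5%, 14.1% and 25.7% of all genes. Falls numbered 2, 2 and 6, against 8.95%, 7.15% and 24.5% of all genes. The largest falls with tretinoin+ICT were Eprs and Iars, both by 0.27, and the median log2 fold change of the 15 was -0.08. The mitochondrial Wars2 held 20.9 to 28.6 CPM in all tumours, with log2 fold changes of -0.06, -0.10 and -0.12. Of the genes of the amino acid starvation response, which uncharged tRNA sets off through Eif2ak4, 8 of 10 were tested. The same shares of all genes stand beside their counts. With ICT 4 rose (Vldlr by 0.63, Trib3 by 0.82, Chac1 by 0.47 and Ddit3 by 0.31) and with tretinoin+ICT 4 rose (Trib3 by 1.26, Chac1 by 0.91, Vldlr by 0.87 and Ddit3 by 0.53), while Eif2ak4, Asns, the asparagine synthetase, and Psat1 fell by 0.17, 0.27 and 0.18. With tretinoin Vldlr rose by 0.53 and Psat1 fell by 0.25.

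Of 16 listed genes of interferon-γ signalling and of cytokines that induce Nos2 or Ido1, 11 were tested. Ifng itself, Jak2, Socs1 and Ciita were not analysed here. Of the 11, 4 rose with tretinoin, 5 with ICT and 9 with tretinoin+ICT, against 11.5%, 14.1% and 25.7% of all genes. Irf1, a transcription factor downstream of the interferon-γ receptor, had a median of 216 CPM in PBS, 395 in tretinoin, 492.8 in ICT and 795 in tretinoin+ICT tumours. It rose by 1.01 with tretinoin (adjusted p = 0.01), 1.02 with ICT (adjusted p = 0.0127) and 1.86 with tretinoin+ICT (adjusted p = 1.29e-06). Irf8 rose by 0.89, 0.96 and 1.84. Cxcl9, a chemokine induced by interferon-γ, rose by 1.74 with ICT and 2.44 with tretinoin+ICT, and its value with tretinoin was 1.38 without passing. The receptor chain Ifngr1 rose by 0.50 with tretinoin (adjusted p = 5e-06) and 0.40 with tretinoin+ICT, and was lower in ICT than in tretinoin tumours by -0.31 (adjusted p = 0.0377). Against tretinoin alone, 4 of the 11 were higher with tretinoin+ICT, against 12.3% of all genes. They were Il1b by 1.08, Irf8 by 0.94, Irf1 by 0.85 and Ifngr2 by 0.50. There 0 of the 11 fell, against 9.01% of all genes lower.

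**Figure D5:**
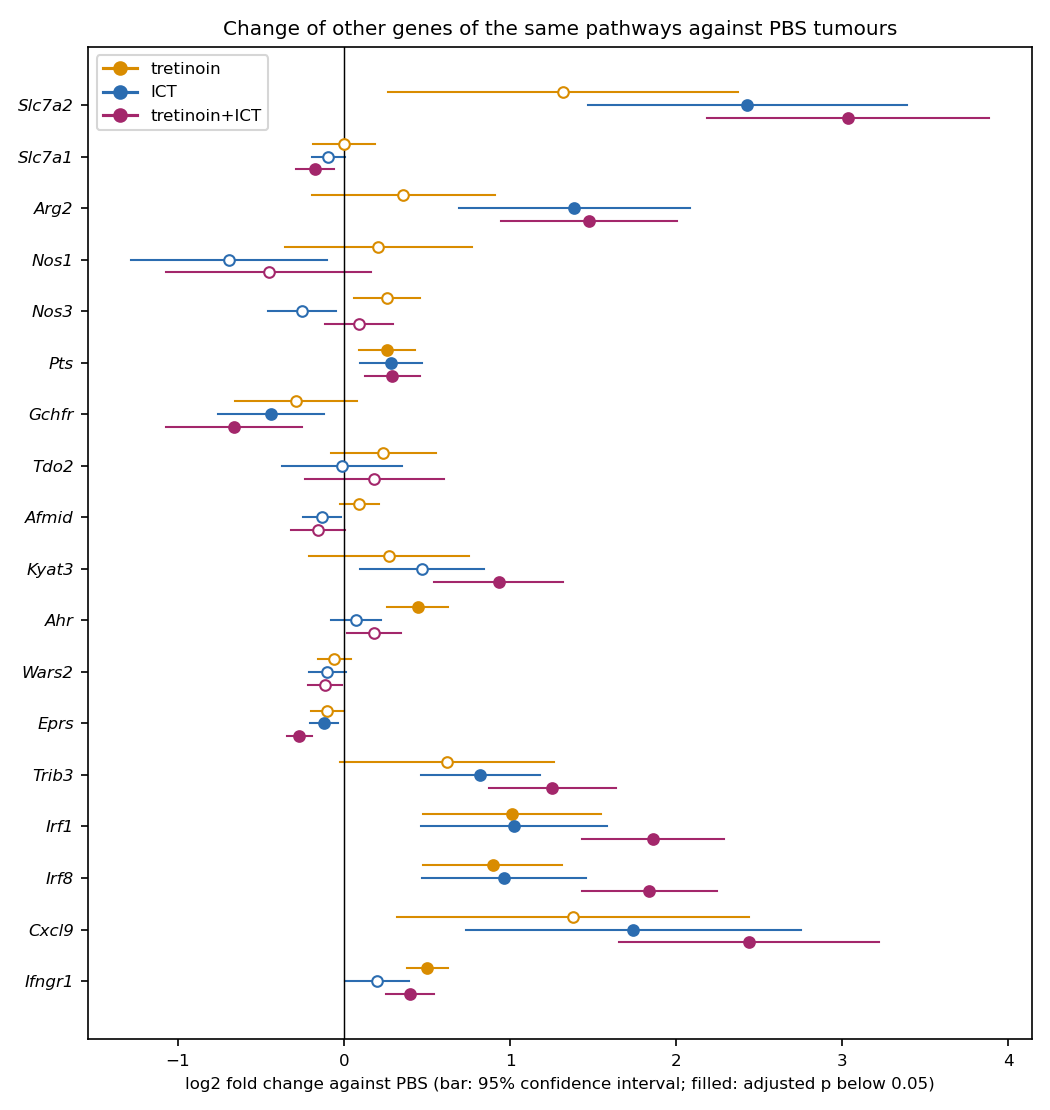
Log2 fold change against PBS tumours (horizontal axis) of genes from the same pathways that are not among the 7, with 95% confidence intervals as bars and filled points where the adjusted p was below 0.05. Slc7a2 and Arg2 are filled for ICT and tretinoin+ICT, Irf1 and Irf8 for all 3 treatments, and Nos1, Nos3, Tdo2 and Wars2 for none.

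Markers of leukocytes that can express these genes are given for the same comparisons, in which 11.5%, 14.1% and 25.7% of all genes rose. Of 8 macrophage markers tested, 4 rose with tretinoin, 8 with ICT and 8 with tretinoin+ICT, and the median of their summed level was 2216 CPM in PBS, 2707 in tretinoin, 3368 in ICT and 3921 in tretinoin+ICT tumours. Of 4 monocyte markers 2, 4 and 4 rose, and the summed level ran from 419 to 873 CPM in PBS and from 770 to 1774 CPM in tretinoin+ICT tumours. Of 4 neutrophil markers 0, 4 and 4 rose, their median log2 fold change with tretinoin being -0.17, with summed levels of 45.9 to 110 CPM in PBS, 56.2 to 163 in tretinoin, 67.5 to 267 in ICT and 101 to 262 in tretinoin+ICT tumours. Between ICT and tretinoin tumours 4.13% of all genes were higher with ICT. There 3 of the 4 neutrophil markers tested, of 6 listed, were higher with ICT, 2 of 8 macrophage and 1 of 4 monocyte markers. Of dendritic cell markers it was 0 of 8, and of T and NK cell markers 0 of 6. Of 8 dendritic cell markers 2, 3 and 4 rose, and of 6 T and NK cell markers 0, 1 and 2. None of these leukocyte markers was at 0 throughout a group. The part of cell numbers in the changes of the 7 genes was not tested.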

How the data were processed

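The authors sequenced 100-base single-end reads of 39 tumours on a NovaSeq, converted them with bcl2fastq 2.20.0.422, aligned them with HISAT2 2.0.4 to a genome named mm11, and counted reads per gene with SummariseOverlaps. The deposited values are raw counts per gene, without normalization. Of 39676 identifiers, 36719 match GENCODE M21 with their version.

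For each comparison edgeR 4.0.16 (TMM, filterByExpr, robust quasi-likelihood test, R 4.3.3) was fitted to all genes of the tumours compared, with Benjamini-Hochberg adjustment over all genes tested. A gene rose or fell at an adjusted p below 0.05, and the study's further minimum of 1 on the log2 scale was an alternative. Each standard error is the size of the log2 fold change over the square root of F. CPM values use TMM factors over the 39 tumours, log2 CPM a prior count of 2, and exon length is the union of annotated exons. Correlations used 100000 permutations within treatments, adjusted over 21 pairs. Python 3.11.15 was used for these. The edgeR fit was tested on simulated data.

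Groups and response came from the labels, and replicate numbers follow the order of the records. The labels do not name the mouse of each tumour, so p-values measure the spread between these tumours. No 2 tumours of a treatment agreed within sampling noise (lowest mean chi-square per gene 11.7 over 171 pairs). The members and the gene lists were chosen with earlier results of these data known. Named genes are the members, list genes past an adjusted p of 0.05 (at most 5 per list and comparison, by smallest p), the paralogues Nos1, Nos3, Tdo2, Arg2 and Wars2, and for each member the 3 genes most like it. Other genes named with a list, such as absent or mesothelial markers, were chosen after their values were seen. Listed genes that were not found, Gch1 and Arg1 among them, were not analysed here, and some genes and motifs that the rule would name are not reported here.

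Alternatives were DESeq2 1.42.0, edgeR with its size factors, the fold change minimum, testing without a filter on low counts or with a minimum of 10 counts per tumour, all tumours in one fit, leaving out the 4 tumours that stood apart, pairs of name series, the second digit of the tumour name as a block (chosen after seeing the data), and, for response, series as a covariate, each tumour left out and an exact permutation test. Ido1 and Ido2 rest on under 20 counts in several PBS and tretinoin tumours and in ICT replicate 10, where counting error is not small.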

Additional observations from a re-analysis of the deposited data

Results flagged for a closer look

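Of 42 combinations of the 7 genes with 6 groups, Dixon's test on log2 CPM flagged a tumour in 4, and chance gives about 1 in 20. The combinations are not independent, because the genes correlate and the response groups are part of tretinoin+ICT. Of the 4 flags, 3 are PBS replicate 4, the highest PBS tumour for Nos2 (17.4 CPM against 7.24 in the next, gap over range 0.686), Ass1 (34.9 against 24.3, 0.47) and Wars (129.7 against 88.5, 0.736). The other is PBS replicate 2, the lowest for Ido2 (0.0543 CPM, from 1 count, against 0.497 in the next, 0.485).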

How the results depend on the processing

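With tretinoin against PBS (4 as reported) the count was 2 with at least 10 counts in every tumour, which leaves fewer of the 7 to test, and 0 for series 3 against 1, 7 against 1 and 7 against 5. With ICT against PBS (7) it was 0 for series 6 against 1, 6 against 5 and 8 against 1. For tretinoin+ICT against ICT (0) it was 1 by DESeq2, 1 without ICT replicate 3 and 5 without ICT replicates 3 and 7. For tretinoin+ICT against tretinoin (4) it was 0 for series 2 against 3 and 4 against 3, 2 for series 2 against 7 and 1 for series 4 against 7, where 0.34%, 0.208%, 4.64% and 3.51% of all genes rose. For ICT against tretinoin (2) it was 1 without the low-count filter, with the fold change minimum, without ICT replicate 3 and without ICT replicate 7, and 0 for the 4 pairs of series, where 0.313% to 2.24% of all genes were higher. For responders against non-responders (0) it was 5 by DESeq2 and ran from 0 to 4 when each tumour was left out, 4 being without replicate 8. Apart from the alternatives' own construction (fewer tumours or genes) the cause was not tested. Kynu with tretinoin was also lost without the low-count filter (adjusted p = 0.106) and with all tumours in one fit (adjusted p = 0.0793). With the fold change minimum the counts were 3, 5 and 6 for tretinoin, ICT and tretinoin+ICT against PBS (4, 7 and 7) and 3 for tretinoin+ICT against tretinoin (4, Kmo lost). The tretinoin+ICT against PBS count was 7 in each series pair, and 0 members passed the interaction in each alternative. All 21 correlations stayed positive on variance stabilized values (lowest r 0.409) and without the 4 tumours that stood apart (lowest r 0.40). No p was computed for these 2 settings. No called change reversed. Tumours of different groups share the second digit of their names, 1 to 5, which occurs in both series of a treatment, and the labels do not say what it marks. Treatment-centred log2 CPM of tumours of different treatments with the same digit correlated with a median r of 0.0196 across genes, against -0.00178 for other digits, and 13 of 39 tumours correlated best with their own digit, so the digit was not taken as a pairing. With the digit as a replicate block, added after seeing the data, the count was 2 with tretinoin (Ido1 at adjusted p = 0.0566 and Kynu at 0.0771 lost), 1 for tretinoin+ICT against ICT (Wars, adjusted p = 0.0444), 3 for ICT against tretinoin (with Ass1, adjusted p = 0.0285) and as reported in the other 5 comparisons. Counts in this section that have no share of all genes beside them, these included, are a description alone. Between 1 and 70 counts per PBS tumour, and 3 and 11 in ICT replicate 10, limit Ido1 and Ido2.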
